A study of Mus musculus with 12 samples.

Results

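Complex I members are the 45 rows of the deposited gene table, of 23282, whose symbol starts with Nduf. The 7 symbols starting with Ndufaf name assembly factors, and the other 38 were counted as subunits. All 45 passed the filter on low counts, as did 11857 genes in all. No row bears the symbol Ndufb1 or Ndufaf8, and the subunits encoded by mitochondrial DNA were not analysed here.

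B cells came from the spleens of wild-type C57BL/6 mice aged 7 weeks, in 12 libraries, 3 for each of 4 treatments. Mice of the ODN+IM156 group received both agents, those of the ODN group the class B oligonucleotide CpG-ODN 1826 alone, those of the IM156 group IM156 alone, and control mice nothing. Injections went into the peritoneum, with 50 µg of ODN on each of days 1 and 3 and IM156, dosed at 30 mg/kg, on day 0 and again on day 2. Spleens were taken on day 4. The series text calls the mice lupus-prone, whereas the sample labels give the wild-type strain. As the labels name no vehicle for untreated mice, an agent and its injections cannot be told apart. The labels name neither the sex of the mice, the number of animals behind a library nor a batch, and p-values therefore measure only the spread between these samples, which may be technical.

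Complex I, the NADH dehydrogenase of the inner mitochondrial membrane, passes electrons from NADH to ubiquinone and pumps protons. Its matrix arm holds the N module, where NADH is oxidised, and the Q module, where ubiquinone is reduced. The membrane arm has a proximal part next to the Q module and a distal part, and assembly factors help to join the modules without staying in the finished enzyme. Unmethylated CpG DNA is sensed by the endosomal receptor TLR9, and B cells enlarge their mitochondrial metabolism when they are activated. Per the series title, IM156 inhibits oxidative phosphorylation.

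The libraries held 9650775 to 11532525 counts each, of which the members took 0.324% to 0.438%. Levels are given as CPM, counts relative to the TMM-scaled library total, for replicates 1, 2 and 3, and differences as log2 fold changes. A gene was called at a Benjamini-Hochberg adjusted p below 0.05 over all genes tested, from edgeR's quasi-likelihood test on all 12 libraries. ODN replicate 3 stood apart with 1 count of Xist, which is transcribed from the silenced X chromosome of female cells, where the remaining libraries had 9701 to 13011, and ODN replicate 2 with 1.46% of counts on the ribosomal RNA row Rn45s, against 4.78% to 9.63% elsewhere. The 10 B-cell markers were all detected, with summed levels of 8767 to 9410 CPM in ODN+IM156 and 8288 to 9447 CPM in ODN, against 9295 to 9436 CPM with IM156 alone and 8977 to 10240 CPM in control.

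ODN against control asks what the TLR9 ligand did alone. Transcripts of 12 of the 38 subunits rose and none fell, whereas 0 of the 7 assembly factors were called in either direction. Over all genes tested, 7.34% were called higher and 3.25% lower. The estimate was positive for 37 subunits, and their median log2 fold change was 0.24, against -0.02 for the assembly factors and -0.00495 for all genes tested. All 3 ODN libraries lay above all 3 control libraries for 13 subunits, an arrangement that 13.2% of all genes tested showed. In bulk RNA, more cells of a kind and more RNA per cell cannot be told apart.

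**Figure D1:**
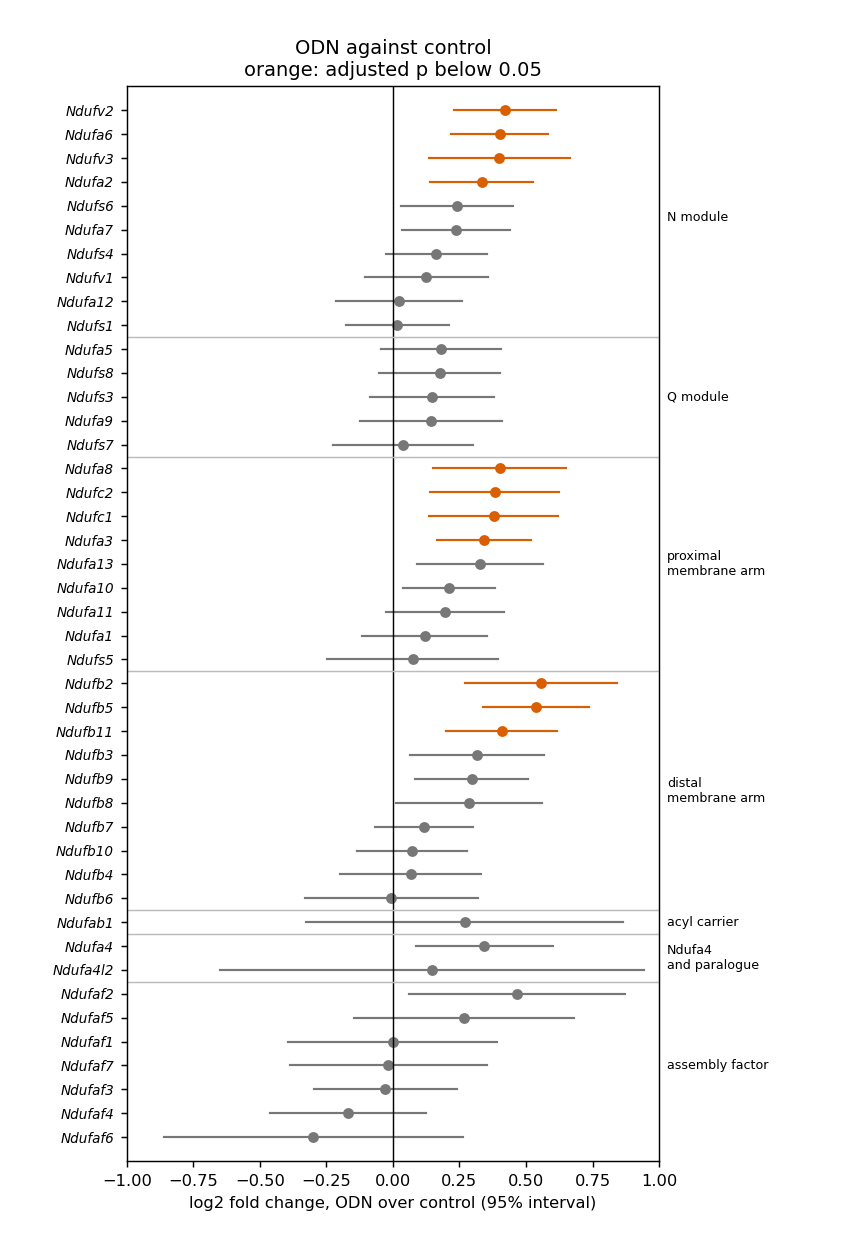
Log2 fold change of the complex I members but 1 in ODN over control (x axis), with 95% intervals, grouped by role (right). The called members shown (orange) are all subunits with positive estimates, while the 7 assembly factors lie on both sides of 0.

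In the N module, 4 of 10 subunits rose, and all 10 estimates were positive with a median of 0.24. Ndufv2, which carries an iron-sulfur cluster beside the NADH site, had 144, 118 and 121 CPM in ODN libraries, against 98.6, 96.2 and 90.8 CPM in control libraries. Every ODN value exceeded every control value, and the log2 fold change was 0.42 (SE 0.0918, adjusted p = 0.00513). Ndufa6, an accessory subunit of the LYR protein family, had 290, 320 and 271 CPM in ODN, against 234, 235 and 199 CPM in control. The groups did not overlap here either (log2 fold change 0.40, SE 0.0875, adjusted p = 0.00513). Ndufa2, an accessory subunit with a thioredoxin-like fold, had 319, 351 and 291 CPM in ODN, against 249, 270 and 245 CPM in control (log2 fold change 0.33, adjusted p = 0.0256). Ndufv3, an accessory subunit next to the NADH site, had 136, 140 and 102 CPM in ODN, against 98.9, 109 and 78.7 CPM in control. ODN replicate 3 lay below control replicate 2 there, and Ndufv3 was called with little margin (log2 fold change 0.40, adjusted p = 0.0498).

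Among the subunits of the N module that did not pass the test were others of its electron path. Ndufv1, which binds flavin and NADH, had 99.3, 75.7 and 78.9 CPM in ODN, against 88.8, 72.0 and 71.8 CPM in control, and its groups overlapped (log2 fold change 0.13, 95% interval -0.11 to 0.36). Ndufs1, the largest iron-sulfur subunit, had 76.3, 81.8 and 75.4 CPM in ODN, against 71.0, 78.4 and 81.7 CPM in control (log2 fold change 0.02, 95% interval -0.18 to 0.21). Its value is uncertain, since it overlaps Eef1b2 on the opposite strand, a gene called higher with a log2 fold change of 0.72. The overlap does not lie within 200 bases of the 3' end of Ndufs1. Ndufs4, an accessory subunit whose loss in mice gives a mitochondrial encephalopathy, had 81.7, 87.0 and 76.1 CPM in ODN, against 70.7, 78.7 and 69.2 CPM in control (log2 fold change 0.16, 95% interval -0.03 to 0.35).

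In the Q module, all 6 estimates were positive, with a median of 0.16. Ndufs7, which holds the last iron-sulfur cluster before ubiquinone, had 50.5, 59.3 and 46.6 CPM in ODN, against 50.1, 55.2 and 47.2 CPM in control, with overlapping groups (log2 fold change 0.04, 95% interval -0.22 to 0.30). Ndufa5 and Ndufa9, accessory subunits of this module, were at 98.1 ± 14.9 and 50.9 ± 6.78 CPM in ODN, against 86.6 ± 3.98 and 46.1 ± 7.24 CPM in control (SD, n = 3 each). Neither passed the test, with log2 fold changes of 0.18 (95% interval -0.05 to 0.41) and 0.14 (95% interval -0.12 to 0.41).

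Of the 9 subunits of the proximal membrane arm, 4 rose and all 9 estimates were positive, with a median of 0.33. Ndufa3, a small accessory subunit, had 196, 205 and 181 CPM in ODN, against 159, 159 and 141 CPM in control, without overlap (log2 fold change 0.34, adjusted p = 0.0124). Ndufa8, which lies on the face towards the intermembrane space, had 60.3, 72.6 and 52.4 CPM in ODN, against 53.6, 43.2 and 43.9 CPM in control (log2 fold change 0.40, adjusted p = 0.0377). There ODN replicate 3 lay below control replicate 1. Ndufc1 had 71.9, 84.6 and 63.0 CPM in ODN, against 60.7, 51.4 and 56.8 CPM in control (log2 fold change 0.38, adjusted p = 0.043). Ndufc2, which contacts Ndufc1 in the membrane arm, had 152, 154 and 108 CPM in ODN, against 98.0, 111 and 108 CPM in control (log2 fold change 0.38, adjusted p = 0.0394). Its rise rests on ODN replicates 1 and 2, since replicate 3 lay within the controls. Ndufa13, also known as GRIM-19, had 165, 170 and 140 CPM in ODN, against 146, 128 and 106 CPM in control, and missed the threshold (log2 fold change 0.33, adjusted p = 0.0747). Ndufa10, which resembles nucleoside kinases, had 144, 126 and 130 CPM in ODN, against 117, 118 and 111 CPM in control. It did not pass the test although its groups did not overlap (log2 fold change 0.21, 95% interval 0.04 to 0.38, adjusted p = 0.113).

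The distal membrane arm held the smallest adjusted p and the highest fold change, with 3 of 10 subunits called and a median of 0.29. Ndufb5, an accessory subunit of this arm, had 214, 208 and 165 CPM in ODN, against 140, 139 and 125 CPM in control. The ODN libraries all lay above the controls, replicate 3 the least so (log2 fold change 0.54, SE 0.096, adjusted p = 0.00117). Ndufb2 had 44.9, 39 and 32.4 CPM in ODN, against 27.5, 26.1 and 25.4 CPM in control, again without overlap (log2 fold change 0.56, SE 0.137, adjusted p = 0.0119). Ndufb11, encoded on the X chromosome, had 145, 150 and 123 CPM in ODN, against 107, 110 and 98.0 CPM in control (log2 fold change 0.41, adjusted p = 0.0116). The next in line, Ndufb9, an LYR-family subunit, had 99.0, 107 and 87.9 CPM in ODN, against 77.0, 86.9 and 75.4 CPM in control, and missed the threshold (log2 fold change 0.30, adjusted p = 0.0699). Ndufb8 had 108, 87.2 and 69.8 CPM in ODN, against 80.9, 63.3 and 73.2 CPM in control, a wide spread among ODN libraries (log2 fold change 0.29, 95% interval 0.01 to 0.56, adjusted p = 0.181). A single subunit, Ndufb6, named after its value was seen, had a negative estimate (log2 fold change -0.01, 95% interval -0.33 to 0.32).

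Outside the modules, Ndufab1, the mitochondrial acyl carrier protein, had 71, 100 and 53 counts in ODN and 80, 51 and 51 counts in control. At 7.39, 8.59 and 5.07 CPM in ODN, against 7.95, 4.63 and 4.94 CPM in control, its 95% interval was -0.33 to 0.86, too wide to separate the groups. The annotation names a pseudogene, Ndufab1-ps, whose reads the authors' counting may have split from it. Ndufa4, a protein now assigned to cytochrome c oxidase, had 83.7, 88.4 and 62.8 CPM in ODN, against 66.5, 65.4 and 53.3 CPM in control (log2 fold change 0.34, adjusted p = 0.0823). Its paralogue Ndufa4l2 had the fewest counts of the members, 40, 25 and 31 in ODN and 39, 30 and 18 in control, and no difference was detectable at this depth (95% interval -0.65 to 0.94).

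The assembly factors did not pass the test. Ndufaf4, which helps to build the Q module, had 35.1, 45.3 and 58.6 CPM in ODN, against 55.2, 50.9 and 50.3 CPM in control. ODN libraries lay on both sides of the controls (log2 fold change -0.17, 95% interval -0.46 to 0.12). Ndufaf3, its partner, was at 31.6 ± 3.12 CPM in ODN and 32.2 ± 1.85 CPM in control (SD, n = 3 each; log2 fold change -0.03, 95% interval -0.30 to 0.24). Ndufaf1, a factor of membrane arm assembly, was at 12.9 ± 1.85 CPM in ODN and 12.9 ± 1.21 CPM in control (SD, n = 3 each; log2 fold change 0.00, 95% interval -0.39 to 0.39). At an unadjusted p below 0.05, which 25.2% of all genes had, 1 of the 7 passed, Ndufaf2, a late assembly factor named after its value was seen (log2 fold change 0.47, adjusted p = 0.136), and DESeq2 also called 0. Of 10 assembly genes with other names, such as Acad9, Ecsit and Timmdc1, 0 were called and 3 had an unadjusted p below 0.05, with a median log2 fold change of 0.0137. The standard errors were larger for the assembly factors, with a median of 0.188, against 0.111 for the subunits, so that the same fold change was harder to call among them.

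**Figure D2:**
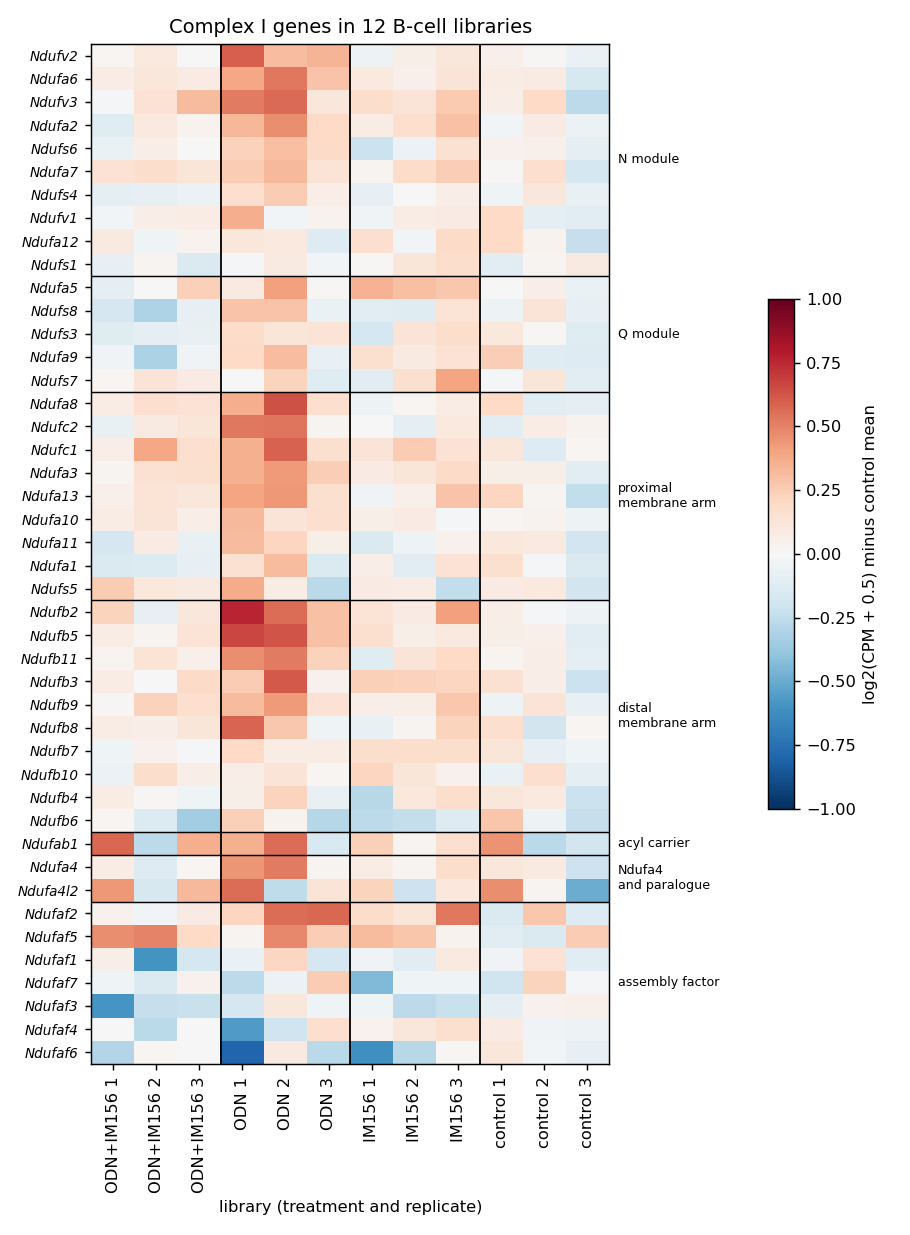
Log2 level of the complex I members but 1 (rows, by role) in each of the 12 libraries (columns), relative to the mean of the 3 control libraries, with red above and blue below. Subunits were reddest in ODN replicates 1 and 2, with library medians of 0.328 and 0.313, against 0.0693 in ODN replicate 3, and the assembly factors showed no common shift.

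The ODN libraries were uneven. Summed over subunits, levels were 4060, 4192 and 3467 CPM in ODN, against 3347, 3320 and 2969 CPM in control. ODN replicate 3 was the lowest of its group for 33 of 38 subunits, and control replicate 3 the lowest of its own for 31 of 38. The assembly factors summed to 112.5, 143.6 and 150.1 CPM in ODN, against 135.2, 142.5 and 136.4 CPM in control, with overlapping groups. Without ODN replicate 3, 17 subunits were called higher, with 9.45% of all genes, and the subunit median was 0.276. Without ODN replicate 1, 5 subunits were called higher, with 4.88% of all genes, and the median was 0.226. Without ODN replicate 2 there were 4 calls, with 5.86% of all genes, and a median of 0.204. Without control replicate 3 there were 3 calls, with 5.2% of all genes, and a median of 0.175. Ndufb5 and Ndufv2 passed under all 20 alternatives, Ndufa6 and Ndufb2 under 18 of 20, and Ndufv3 under 5 of 20.

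Other measures moved with the ODN group. The 12 proliferation markers, all called higher, summed to 2186, 967.7 and 595.6 CPM in ODN, against 300.4, 188.9 and 370.7 CPM in control, and replicate 3 was the lowest of the ODN libraries there too. Platelet markers, 7 of 9 called higher, summed to 130.2 to 226.9 CPM in ODN, against 45.82 to 68.94 CPM in control. Erythroid markers, 5 of 9 called lower, summed to 115.5 to 265.5 CPM in ODN, against 689.3 to 886.2 CPM in control. Neutrophil markers, both tested ones called higher, summed to 22.67 to 84.78 CPM in ODN, against 5.422 to 8.547 CPM in control, with Elane at 0 in both groups, and natural killer cell markers, 1 of 3 called higher, to 10.21 to 20.95 CPM in ODN, against 3.448 to 3.777 CPM in control. Monocyte and macrophage markers, 2 of 8 called higher, summed to 46.59 to 81.34 CPM in ODN, against 35.75 to 67.0 CPM in control, and 1 of the 10 B-cell markers was called lower. Of the 4 tested T-cell markers and the 4 tested plasma cell markers, 0 were called. The part of these cells and of proliferation in the subunits' result was not tested.

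Subunit transcripts are short, and short transcripts as a class had higher estimates under ODN. The median longest annotated transcript was 952.5 bases for the subunits, 1478 for the assembly factors and 3000 over all genes tested with a known length. Of 830 tested genes under 1000 bases, 22.8% were called higher in ODN against control, with a median log2 fold change of 0.196. The 21 subunits in that range had a median of 0.236 and 6 calls. Between 1000 and 2000 bases, 10.3% of all genes were called higher with a median of 0.0775, while the 12 subunits there had a median of 0.25 and 5 calls. With a correction of each library for transcript length, 3 subunits were called, Ndufv2 (log2 fold change 0.33), Ndufb5 (0.37) and Ndufb2 (0.56), where 5.8% of all genes were called higher. The correction used the longest annotated transcript, which for Ndufb2 has 4371 bases, so that Ndufb2 was corrected as a long gene. It was the 1 subunit above 4000 bases, where the median of all genes was -0.0729 before correction. The median of the subunits under the correction was 0.0703, against -0.0345 for all genes.

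**Figure D3:**
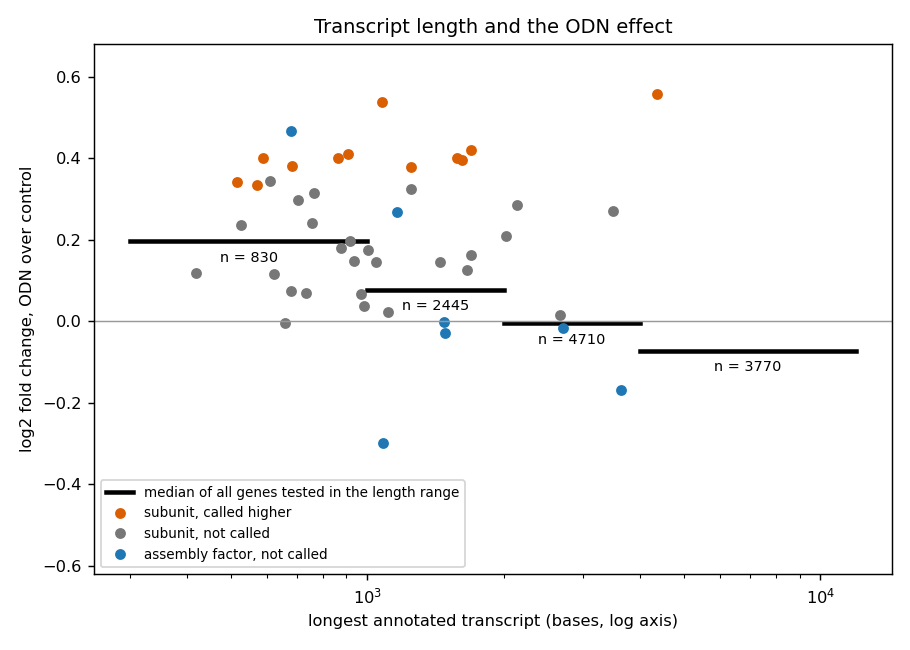
Log2 fold change in ODN over control (y axis) against the longest annotated transcript of each complex I member (x axis, log scale), with black lines for the median of all genes tested in each length range, the outer ranges being open. Genes under 1000 bases had a median of 0.196, and most subunits lie in the 2 shorter ranges.

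Promoter sequence was available from RefSeq (GRCm38.p6, 250 bases before to 50 after the start) for 39 of the 45 members, 33 of them subunits. The windows below, 120 bases before to 30 after the start, belong to the member of smallest adjusted p (Ndufb5), the other member called under every alternative (Ndufv2), the member of highest fold change (Ndufb2) and a called member with more than 1 match (Ndufa3). Capitals mark matches on either strand to 5 letter strings searched. These were CCGGAAG (ETS), AAGATGG (YY1), GGGCGG (SP), CACGTG (E-box) and TGACGTCA (CRE), and no match overlapped another in these windows.
Ndufb5, chr3:32736943-32737092, plus strand: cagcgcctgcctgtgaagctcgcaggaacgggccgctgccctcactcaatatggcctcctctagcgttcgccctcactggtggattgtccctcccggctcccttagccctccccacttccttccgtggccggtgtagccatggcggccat
Ndufv2, chr17:66101530-66101679, minus strand: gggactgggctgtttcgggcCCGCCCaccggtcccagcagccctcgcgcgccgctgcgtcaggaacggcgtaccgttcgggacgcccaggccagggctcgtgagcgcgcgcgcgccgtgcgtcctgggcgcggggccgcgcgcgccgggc
Ndufb2, chr6:39592445-39592594, plus strand: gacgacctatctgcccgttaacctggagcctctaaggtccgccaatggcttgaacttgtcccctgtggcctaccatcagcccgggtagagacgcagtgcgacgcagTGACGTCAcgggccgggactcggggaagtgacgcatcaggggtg
Ndufa3, chr7:3617253-3617402, plus strand: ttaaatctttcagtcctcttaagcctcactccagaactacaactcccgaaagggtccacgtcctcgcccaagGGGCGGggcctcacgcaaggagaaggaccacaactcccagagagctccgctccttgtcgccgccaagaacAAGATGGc
Ndufb5 held none of the strings in its whole promoter entry. The CRE string of Ndufb2 started 14 bases before the start, and the YY1 string of Ndufa3 lay just after it. Over the 35 subunit promoter entries, AAGATGG was found in 20.0%, against 6.34% of all 32851 entries, TGACGTCA in 8.57%, against 1.79%, and GGGCGG in 45.7%, against 35.7%. CCGGAAG was in 11.4% of subunit entries and 8.86% of all and CACGTG in 8.57% and 7.15%. A match is a description of letters and not a binding site.

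ODN+IM156 against ODN asks what IM156 did on top of the ligand. It uses the same ODN libraries as ODN against control, so these comparisons are not independent. High values in those libraries give positive estimates there and negative ones here. No member passed edgeR's test, which 0.0675% of all genes did. Of 38 subunit estimates 35 were negative, with a median of -0.24, against -0.00826 for all genes. Short transcripts as a class had negative estimates too. Among the 830 genes under 1000 bases the median was -0.166, against -0.228 for the 21 subunits in that range. Between 1000 and 2000 bases it was -0.0686 for all genes, against -0.248 for 12 subunits. At an unadjusted p below 0.05 there were 19 subunits and 2 assembly factors, and 16.2% of all genes. DESeq2 called 5 subunits lower, Ndufa6, Ndufv2, Ndufa2, Ndufb5 and Ndufb11, with 1.39% of all genes called lower by that tool. All ODN+IM156 libraries lay below all ODN libraries for 14 subunits, and 10% of all genes tested did the same.

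Ndufb5 had 142, 138 and 148 CPM in ODN+IM156, against 214, 208 and 165 CPM in ODN (log2 fold change -0.46, SE 0.0958, adjusted p = 0.0622). Ndufv2 had 96.3, 102 and 95.5 CPM in ODN+IM156, against 144, 118 and 121 CPM in ODN (log2 fold change -0.38, SE 0.0918, adjusted p = 0.0622). Neither gene's groups overlapped, and both missed the threshold narrowly. Ndufa6 had 234, 240 and 235 CPM in ODN+IM156, against 290, 320 and 271 CPM in ODN (log2 fold change -0.31, adjusted p = 0.0836). The ODN+IM156 libraries of these 3 genes stood close together, while the ODN libraries were spread. Ndufs4 had 68.4, 68.7 and 69.7 CPM in ODN+IM156, against 81.7, 87.0 and 76.1 CPM in ODN (log2 fold change -0.24, 95% interval -0.43 to -0.05, adjusted p = 0.185). Ndufaf3 had 21.2, 27.4 and 27.5 CPM in ODN+IM156, against 28.6, 34.9 and 31.3 CPM in ODN (log2 fold change -0.32, 95% interval -0.59 to -0.05, adjusted p = 0.229). Ndufs7 had 51.3, 55.4 and 53.6 CPM in ODN+IM156, against 50.5, 59.3 and 46.6 CPM in ODN, and overlapped (log2 fold change 0.03, 95% interval -0.23 to 0.29).

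Summed over subunits, levels were 3207, 3360 and 3371 CPM in ODN+IM156, below each of the ODN sums of 4060, 4192 and 3467 CPM. Without ODN replicate 3, 10 subunits were called lower, with a median of -0.282, where 4.36% of all genes were called lower. Under the length correction the median was -0.114 with 0 calls. Proliferation markers summed to 422.3, 688.4 and 612.2 CPM in ODN+IM156, against 2186, 967.7 and 595.6 CPM in ODN, and 0 of 12 were called. In the authors' deposited table, whose test is not stated, the fold of ODN+IM156 over ODN was 0.729 for Ndufb5 (p = 0.026) and 0.77 for Ndufv2 (p = 0.022). The same authors' deposited table has the fold of ODN over control at 1.449 for Ndufb5 and 1.337 for Ndufv2.

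**Figure D4:**
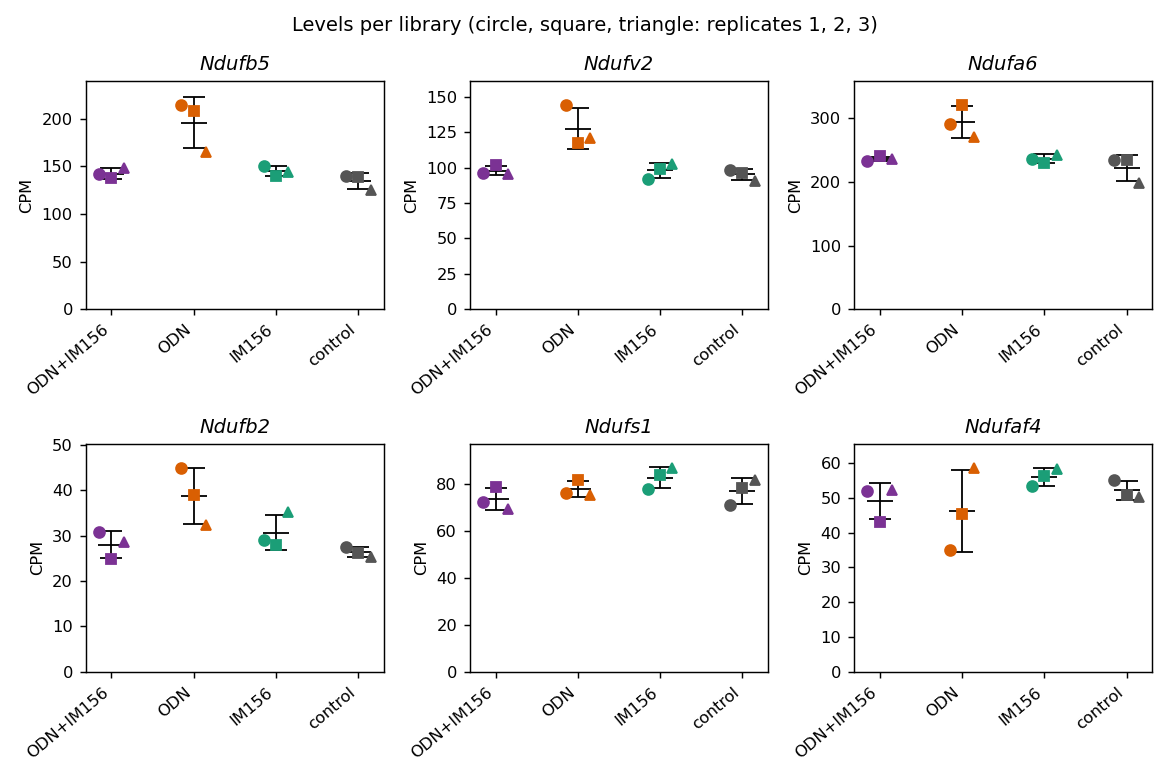
CPM of 6 members per library by group (points by replicate, bars mean ± SD of 3). Ndufb5, Ndufv2, Ndufa6 and Ndufb2 were higher in ODN than in the control libraries, and Ndufs1 and Ndufaf4 overlapped between ODN and control.

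ODN+IM156 against IM156 gives the effect of the ligand when IM156 was present, in libraries that ODN against control does not use. Again 0 of 45 members were called by edgeR or by DESeq2, where 2.47% of all genes passed edgeR's test, and 1 member, with 14.4% of all genes, had an unadjusted p below 0.05. That member was Ndufa5, with 81.2, 86.5 and 102 CPM in ODN+IM156, against 111, 107 and 104 CPM in IM156 (log2 fold change -0.26, adjusted p = 0.269). The subunit median was -0.00964, and 12 of 38 estimates were positive. The 12 subunits that rose under ODN alone had a median of -0.00165, with 4 positive and 8 negative estimates. They were picked by the test in ODN against control, which favours large estimates there, so the contrast between these effects is overstated. Ndufb5 had 142, 138 and 148 CPM in ODN+IM156, against 150, 140 and 145 CPM in IM156 (log2 fold change -0.02, 95% interval -0.23 to 0.18). Ndufv2 had 96.3, 102 and 95.5 CPM in ODN+IM156, against 92.0, 99.3 and 103 CPM in IM156 (log2 fold change 0.00, 95% interval -0.20 to 0.19). Ndufb2 had 30.8, 24.8 and 28.5 CPM in ODN+IM156, against 29.0, 28.0 and 35.1 CPM in IM156 (log2 fold change -0.13, 95% interval -0.42 to 0.16). For each of the 3 genes the groups overlapped. Of the proliferation markers, 10 of 12 were called higher in this comparison, as were 5 of 9 platelet markers and 2 of 3 natural killer cell markers. Both tested neutrophil markers and 1 of 4 T-cell markers were called higher, and 3 of 9 erythroid markers lower. Of the B-cell, monocyte and macrophage, and plasma cell markers 0 were called.

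**Figure D5:**
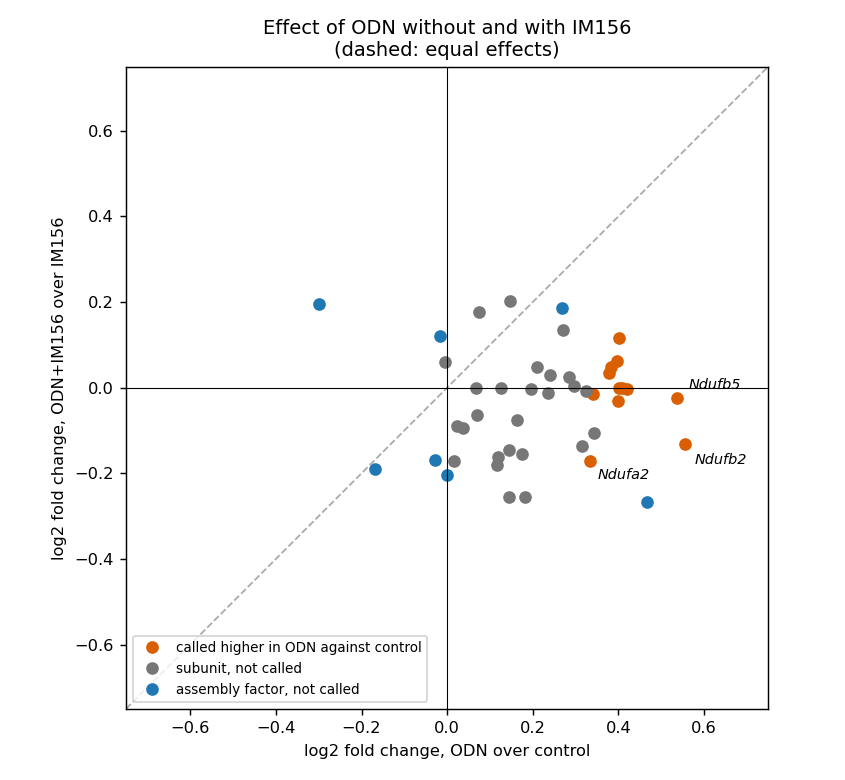
Log2 fold change of each complex I member for ODN+IM156 over IM156 (y axis) and ODN over control (x axis), with the dashed line at equal effects. The 12 members called in ODN against control (orange) lie between 0.334 and 0.557 on the x axis and between -0.172 and 0.115 on the y axis. They were picked by the test on the x axis, which favours large x values.

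The difference between those effects is the interaction term (response to IM156 among ODN-injected mice minus the response among the others). It was called for 0 of 45 members by edgeR, and for 0 of all genes tested (0%). At an unadjusted p below 0.05 there were 15 subunits and 1 assembly factor, with 12.3% of all genes. DESeq2 called 3 subunits lower, Ndufa6, Ndufa2 and Ndufb5, against 0.868% of all genes. The subunit median was -0.29, against -0.0114 for all genes. Among the 830 genes under 1000 bases the median was -0.226, against -0.285 for the 21 subunits in that range. Between 1000 and 2000 bases it was -0.0896 for all genes, against -0.333 for 12 subunits. Under the length correction the interaction was called for 0 of 11755 genes. Across the alternatives its subunit median was -0.382 to -0.171. The part of transcript length in the interaction was not tested further. Ndufb5 had an interaction of -0.56 (SE 0.136, adjusted p = 0.154), Ndufa2 of -0.51 (SE 0.131, adjusted p = 0.154) and Ndufb2 of -0.69 (SE 0.193, adjusted p = 0.162). A different response to ODN in the presence of IM156 therefore did not pass edgeR's test for any member. Without ODN replicate 3 it was called for 3 subunits, Ndufa2, Ndufb5 and Ndufb2, all negative, where 1.34% of all genes were called negative.

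IM156 against control compares the inhibitor alone with no treatment, and 0 of 45 members were called by edgeR or DESeq2, as were 0% of all genes by edgeR. The subunit median was 0.0881, with 30 positive and 8 negative estimates. All IM156 libraries lay above all control libraries for 6 subunits, as for 5.16% of all genes. Ndufa5 alone of the members had an unadjusted p below 0.05, as did 3.7% of all genes, with 111, 107 and 104 CPM in IM156, against 86.4, 90.6 and 82.7 CPM in control (log2 fold change 0.31, 95% interval 0.08 to 0.54, adjusted p = 0.999). Its groups were apart, and so were those of the small subunits Ndufa3 and Ndufc1. Ndufv1 had 75.3, 81.4 and 81.5 CPM in IM156, against 88.8, 72.0 and 71.8 CPM in control (log2 fold change 0.04, 95% interval -0.20 to 0.27). Ndufaf4 had 53.4, 56.3 and 58.3 CPM in IM156, against 55.2, 50.9 and 50.3 CPM in control (log2 fold change 0.10, 95% interval -0.19 to 0.39). The groups overlapped for Ndufv1 and Ndufaf4, and shifts within the intervals could not be resolved with 3 libraries a group. Erythroid markers, of which 0 were called, summed to 577.5, 472.5 and 101.2 CPM in IM156, against 744.1, 886.2 and 689.3 CPM in control.

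ODN+IM156 against control compares both agents with no treatment. By edgeR and by DESeq2 0 of 45 members were called, whereas 1.59% of all genes passed edgeR's test, and the subunit median was 0.0651. At an unadjusted p below 0.05 there were 12.9% of all genes and 1 member, Ndufaf3, with 21.2, 27.4 and 27.5 CPM in ODN+IM156, against 30.1, 33.2 and 33.4 CPM in control (log2 fold change -0.35, 95% interval -0.62 to -0.07, adjusted p = 0.24). Its groups did not overlap. Ndufb5 had a log2 fold change of 0.08 (95% interval -0.12 to 0.28) and Ndufv2 of 0.04 (95% interval -0.15 to 0.23). Called higher were 6 of 9 platelet, 2 of 8 monocyte and macrophage and 1 of 3 natural killer cell markers. Called lower were 5 of 9 erythroid markers and 1 of 10 B-cell markers. Of the 12 proliferation, 2 neutrophil, 4 T-cell and 4 plasma cell markers tested, 0 were called.

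Averaged over both levels of IM156, 3 of 38 subunits were called higher with ODN, no larger a share than the 8.09% of all genes called higher. The 3 subunits were Ndufb5 (log2 fold change 0.26, adjusted p = 0.0166), Ndufa6 (0.20, adjusted p = 0.0396) and Ndufv2 (0.21, adjusted p = 0.0405). Their 6 libraries with ODN overlapped the 6 without it. That count was 0 without IM156 replicate 2 or ODN+IM156 replicate 3, where 6.31% and 6.29% of all genes were called higher. It was 1 without IM156 replicate 1, ODN+IM156 replicate 2 or control replicate 3, where the shares of all genes were 6.85%, 6.42% and 7.31%. Without ODN replicate 3, 10 subunits were called higher, with 9.7% of all genes, and the assembly factor Ndufaf4 was called lower (log2 fold change -0.28, adjusted p = 0.0282), with 5.8% of all genes. Averaged over both levels of ODN, 0 of 45 members were called for IM156 by edgeR or DESeq2, where 0.0169% of all genes passed edgeR's test. At an unadjusted p below 0.05 there were 4 members, with 8.17% of all genes.

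On GRCm38, the leading members lie on chromosome 3 from 32736990 to 32751566 on the plus strand (Ndufb5), on chromosome 17 from 66078638 to 66101559 on the minus strand (Ndufv2), on chromosome 15 from 82350140 to 82354322 on the minus strand (Ndufa6) and on chromosome 6 from 39592574 to 39603382 on the plus strand (Ndufb2). Counts covered whole genes, read from their 3' ends. Some members overlap a coding gene on the opposite strand, and without a stated strand rule their reads cannot be told apart there. Ndufb2 also overlaps Gm42420 on its own strand, where no strand rule could separate them. Among members not called in ODN against control, Ndufa13 (Yjefn3), Ndufb8 (Gm20538) and Ndufb9 (Gm49356) have such an overlap too. The opposite-strand overlap lies within 200 bases of the 3' end of Ndufb2 (Braf), Ndufa2 (Tmco6) and Ndufa3 (Tfpt) among those called, and away from it for Ndufb5 (Mrpl47) and Ndufb11 (Rbm10). Braf had a log2 fold change of -0.07 in ODN against control, Tmco6 of 0.33, Tfpt of 0.285, Mrpl47 of 0.24 and Rbm10 of 0.02, and none of these 5 was called. The assembly factor Ndufaf3, itself not called, overlaps Impdh2 on the opposite strand within 200 bases of its 3' end. Impdh2 had a log2 fold change of 0.27 in ODN against control and was not called, so values of Ndufaf3 are uncertain.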

How the data were processed

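RNA of splenic B cells was isolated with TRIzol and made into libraries with a Lexogen QuantSeq kit, which reads transcript 3' ends, per the labels' protocols. Raw read counts per gene symbol were deposited, per the file headers, and the submitters' processing notes name Bowtie2, bedtools and edgeR with GRCm38 (mm10). Versions, annotation and strand rule are not given in the sources used here. The authors' deposited fold (a linear ratio) and p-value columns were quoted for 2 genes, and their test is not stated.

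From the counts, genes were kept by filterByExpr (11857), scaled by TMM and fitted with edgeR 4.0.16 (R 4.3.3) to 4 group means over 12 libraries (8 residual degrees of freedom, 1 spread per gene). Tests were two-sided quasi-likelihood tests with Benjamini-Hochberg adjustment over all genes tested, and intervals cover 95%. Tested genes had a median of 258 counts per library, and replicates differed by more than counting error. No 2 replicates agreed within sampling noise. Alternatives were DESeq2 1.42.0 and its size factors, library totals, no filter, a robust fit, only the groups compared, a replicate block, a loess correction for transcript length (GENCODE on GRCm38, 99.1% of tested genes) and leaving out each library. Scripts were tested on simulated counts.

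The members, roles, marker lists, tests and the rule for named genes were chosen with earlier results of these data known. The rule names called members (up to 12 of smallest p), a set list of subunits and assembly factors, the members of most and fewest counts, and the 3 uncalled members of smallest p. Values of 1 member are not reported here on their own.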

Additional observations from a re-analysis of the deposited data

Results flagged for a closer look

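For 3 subunits all IM156 libraries lay above all control libraries while all ODN+IM156 libraries lay below all ODN libraries, opposite directions of the IM156 effect without and with ODN. That double arrangement was found in 77 of all 11857 genes tested (0.649%). The 830 genes under 1000 bases had opposite medians too, 0.0544 in IM156 against control and -0.166 in ODN+IM156 against ODN. Ndufa3 (515 bases) and Ndufb7 (623 bases) are in that range and Ndufb2 (4371 bases) is not. The interaction was -0.687 for Ndufb2 (edgeR adjusted p = 0.162), -0.356 for Ndufa3 (adjusted p = 0.237) and -0.295 for Ndufb7 (adjusted p = 0.334), so that the difference did not pass the test for any of the 3. Ndufb7, a subunit on the intermembrane-space face of the distal arm, had 73.5, 78.2 and 75.4 CPM in ODN+IM156, 87.1, 80.03 and 79.9 CPM in ODN, 85.8, 85.9 and 85.5 CPM in IM156 and 82.6, 71.7 and 73.7 CPM in control. Ndufa3 had 156, 170 and 171 CPM in ODN+IM156, 196, 205 and 181 CPM in ODN, 162, 166 and 175 CPM in IM156 and 159, 159 and 141 CPM in control.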

How the results depend on the processing

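Shares of all genes called are given in brackets. For ODN against control, the count of 12 called members (7.34% of all genes higher) became 5 with library totals (5.86%). It was 3 both with only the groups compared (4.28%) and with the length correction (5.8%). It was 11 with DESeq2's size factors (7.23%), 15 without a filter (6.03%), 12 with DESeq2 (5.31%) and 12 with the robust fit (6.87%). When a library was left out, it was 3 (5.2%) to 17 (9.45%). For ODN+IM156 against ODN, the count of 0 became 9 without a filter (2.56% of all genes lower), 5 with DESeq2 (1.39%) and 2 with the robust fit (0.692%), all lower. It was 0 to 10 when a library was left out (4.36% at 10). The interaction count of 0 became 3 without a filter (0.989% of all genes negative) and 3 with DESeq2 (0.868%). Without a library it was 0 to 3 (1.34% at 3). The ODN main effect, 3 members (8.09% of all genes higher), became 0 with library totals (6.68%) and with the length correction (6.9%). It was 6 without a filter (6.66%), 5 with DESeq2 (6.08%) and 5 with the robust fit (8.04%). Without a library it was 0 to 11 (9.7% higher and 5.8% lower at 11). Apart from the construction of these settings (fewer samples, more genes tested), the cause was not tested. The other comparisons had 0 calls throughout. No called member reversed, and 4 of 157 recomputed medians moved by more than the SD between library medians (0.0914), among them that of ODN against control to 0.0703 under the length correction. With library totals the median of all genes in ODN against control was -0.0743, and 49.1% of calls were higher, against 69.3% with TMM and 61.8% with the length correction.

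Replicate numbers did not pair the libraries. The deviations of 18 same-numbered pairs correlated at -0.103 to 0.0847, and 2 of 12 libraries correlated best with their own number. With the replicate number as a block, 8 members were called in ODN against control, where 6.77% of all genes were called higher. For the ODN main effect 3 members were called, with 7.83% of all genes higher, and 0 members elsewhere. Among members, counts were lowest for Ndufa4l2, Ndufaf6 and Ndufab1.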
